A study of Mus musculus with 2 samples.

Results

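Oligodendrocytes, the myelin-forming cells of the brain, were examined in the hippocampus of aged mice exposed in early adulthood to chemicals that model Gulf War Illness (GWI). They were taken as all gene rows of the authors' deposited table for this cell type, which holds 2053 of the 41442 gene rows in 9 cell type tables. RNA was profiled in single nuclei by droplet sequencing of transcript 3′ ends. The GWI group was male C57BL/6J mice injected intraperitoneally each day for 10 days, from 10 weeks of age, with pyridostigmine bromide at 0.7 mg/kg, a cholinesterase inhibitor, and permethrin at 200 mg/kg, a pyrethroid insecticide that acts on sodium channels. The control group was male mice of that strain injected with vehicle on the same schedule. Tissue was taken at 19 months of age. Each group is 1 library, made from the pooled hippocampi of 3 mice. Genotype is labelled C57/BL7 in the GWI sample and C57/BL6 in the control sample, and whether the strains differed cannot be checked in these tables.

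Oligodendrocytes wrap axons in myelin, a stack of compacted membrane rich in cholesterol, galactolipids and a small set of abundant proteins. Myelin proteins that span the membrane are made in the endoplasmic reticulum and carried through the secretory pathway, whereas the messenger RNA of myelin basic protein travels along the cell's processes and is translated next to the sheath. In the hippocampus most oligodendrocytes are mature cells that keep up myelin through adult life, and new ones form slowly from oligodendrocyte precursor cells (OPCs).

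With 1 library in each group there is no replicate spread, no difference could be tested and no gene is called changed. For each gene the deposited table gives a log2 fold change of mean expression and the share of oligodendrocyte nuclei in each library in which the gene was detected. Its headers number both groups but name neither. The first was read as GWI from the name of the comparison, and every direction rests on that reading. Genes enter the table only if detected in at least 10% of nuclei of 1 library and if the log2 fold change was 0.05 or more in size. A gene without a row may therefore be rare or nearly equal in both libraries. Counts of nuclei and of molecules per nucleus were not given in the sources used here. Pooled nuclei also cannot separate a change in every cell from a change in the mix of oligodendrocyte states.

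Most defining markers of oligodendrocytes had a row. Of 12 oligodendrocyte markers, 9 were listed, and Mbp, which encodes a main protein of central myelin, was detected in 96.0% of GWI nuclei and 95.8% of control nuclei. Mobp, the gene of another abundant myelin protein, was detected in 68.6% of GWI nuclei and 69.2% of control nuclei. St18, Cnp and Myrf had no row. None of the 9 microglial, 7 endothelial, 7 mural or 7 ependymal and choroid plexus markers had a row, nor did any of 5 red blood cell genes. Neuronal and astrocytic markers did appear. Of 8 excitatory neuron markers 4 had a row, among them Camk2a, detected in 21.4% of GWI nuclei and 27.0% of control nuclei. The astrocyte glutamate transporter gene Slc1a2 was detected in 22.0% of GWI nuclei and 26.8% of control nuclei.

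Differences between the libraries were small for most genes. In the authors' deposited table the GWI library was higher for 914 genes, or 44.5%, and lower for 1139, with a median log2 fold change of -0.07 and an SD across genes of 0.23. A log2 fold change of at least 0.5, the size rule used here, was reached by 40 genes higher in GWI (1.95%) and by 27 lower in GWI (1.32%). The high side held genes of myelin, tetraspanin and secretory pathway proteins, and the low side held genes of channels, receptors and signalling enzymes. Most genes past the size rule were sparse: 9 of the 40 higher genes were detected in at least 25% of GWI nuclei, and 3 of the 27 lower genes in at least 25% of control nuclei. The shares detected differed in the direction opposite to the fold change for 181 genes, and Mbp was one of them.

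**Figure D1:**
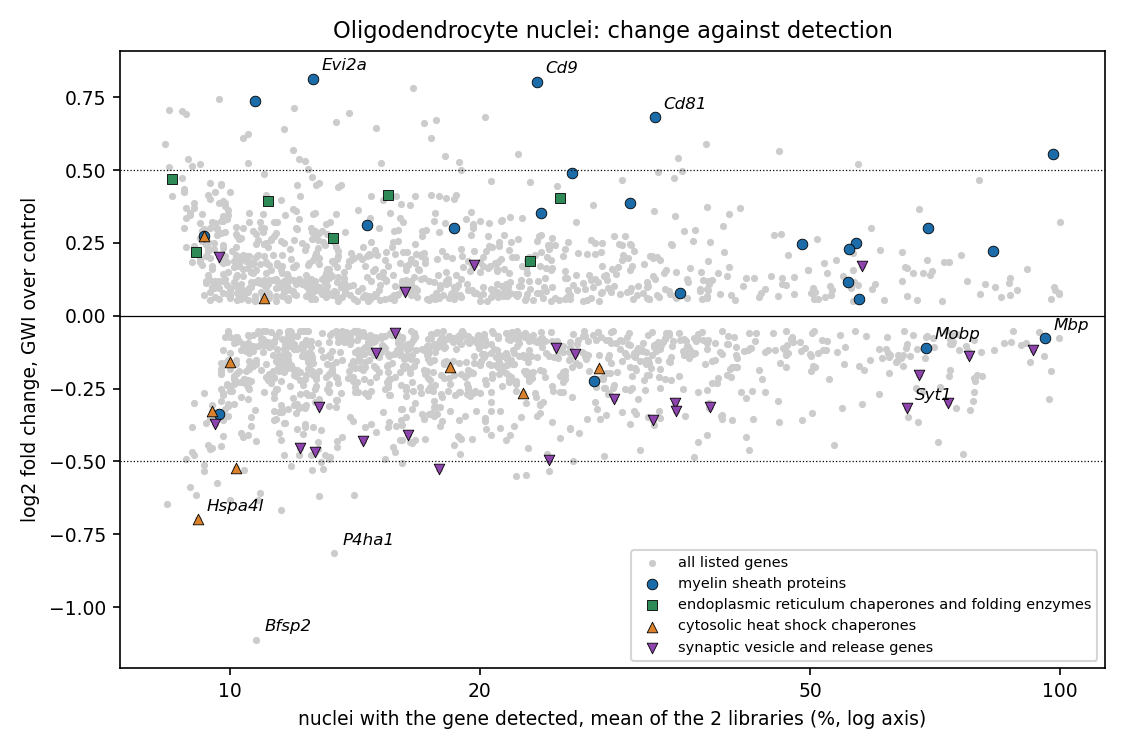
Log2 fold change, GWI over control, (y axis) against the percentage of oligodendrocyte nuclei with the gene detected, as the mean of both libraries on a log axis (x axis). Each point is 1 of 2053 listed genes, with 4 gene lists in colour and shape, and dotted lines at the size rule of 0.5. The empty band around 0 comes from the listing minimum of 0.05. The extremes are Evi2a at 0.81 and Bfsp2 at -1.11.

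Genes of myelin sheath proteins were mostly higher in the GWI library, but Mbp and Mobp, genes of abundant myelin proteins, were not. Of 30 genes of the list, 23 had a row and 19 of these were higher, against 44.5% of all listed genes. Their median log2 fold change was 0.28, and 5 passed the size rule upward and 0 downward. Most members are short genes. In the shortest of 5 length groups (up to 37.7 kb), 17 of 19 members were higher, against 76.2% of all genes there. Mbp, the gene of myelin basic protein, was at -0.08, with detection near its ceiling in both libraries. Mobp was at -0.11.

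Myelin genes past the size rule included 4 that were detected in fewer nuclei than Mbp. Evi2a, which encodes a membrane protein, was detected in 16.1% of GWI nuclei and 9.1% of control nuclei, a log2 fold change of 0.81 that was the highest in the table. Cd9 and Cd81 encode tetraspanins, membrane proteins that organise other proteins into patches. Cd9 was detected in 29.1% of GWI nuclei and 17.7% of control nuclei (0.80), and Cd81 in 39.7% of GWI nuclei and 25.3% of control nuclei (0.68). Pmp22, the gene of a myelin protein best known from peripheral nerve, was detected in 13.3% of GWI nuclei and 8.1% of control nuclei (0.74). In all 4 the share of nuclei differed as well as the mean level. Cd9, Cd81 and Pmp22 also had rows in other cell types of these libraries. Cd9 was at 1.09 in OPCs, 0.99 in microglia and 2.25 in endothelial cells. Cd81 was at 0.71 in OPCs, 0.92 in microglia, 0.48 in astrocytes and -0.10 in endothelial cells. Pmp22 was at 1.03 in OPCs, 0.16 in microglia and -0.95 in endothelial cells.

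A second tier of myelin genes lay between 0.22 and 0.49. Ermn, which encodes the cytoskeletal protein ermin of late myelination, was detected in 30.1% of GWI nuclei and 21.5% of control nuclei (0.49). Opalin, a gene largely confined to oligodendrocytes, was detected in 33.9% of GWI nuclei and 26.7% of control nuclei (0.39). Mal, which encodes a raft protein that takes part in the sorting of myelin proteins, was detected in 74.0% of GWI nuclei and 64.8% of control nuclei (0.30). Also in this tier were Pllp (0.35), Hapln2 (0.31), Tmem88b (0.30), Cryab (0.28), Car2 (0.25), Mog (0.23), Gpm6b (0.22) and Cldn11 (0.25), the gene of the claudin of myelin's tight junctions. Tspan2 (0.11), Tmem63a (0.08) and Mag (0.06) were close to 0. Besides Mbp and Mobp, the lower members were Gpm6a (-0.22) and Sirt2 (-0.34), which encodes a tubulin deacetylase of myelin. Of 23 listed members, 20 were detected in a larger share of GWI nuclei.

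**Figure D2:**
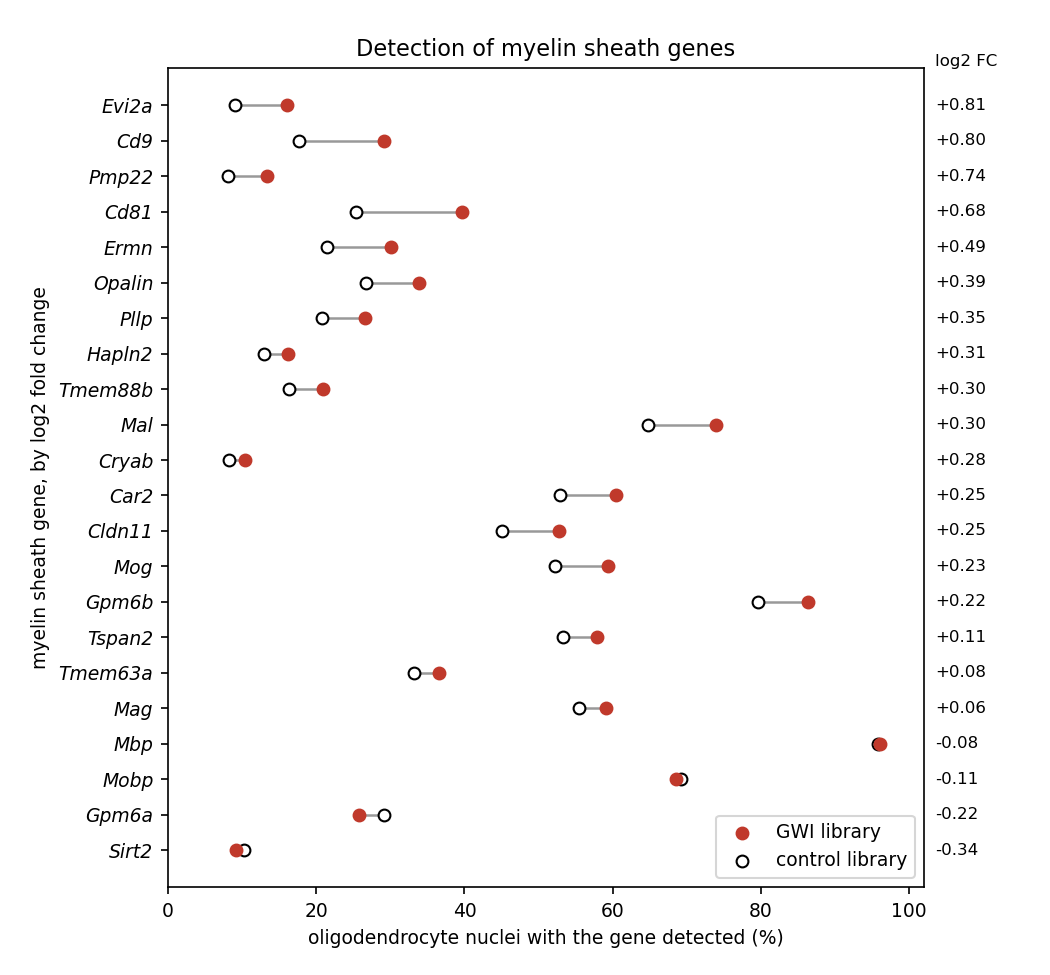
Percentage of oligodendrocyte nuclei in which each of 22 myelin sheath genes was detected, with filled red points for the GWI library and open points for the control library. Genes run down the page by log2 fold change, which is printed at the right. Detection was higher in GWI for 19 of 22 genes, with the widest gap at Cd81 (39.7% in GWI against 25.3% in control), while Mbp was detected in at least 95.8% of nuclei of both libraries.

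Evi2a occupies bases 79526560 to 79530609 of chromosome 11, minus strand (GRCm38, GENCODE M21), inside the span of Nf1, which runs on the plus strand from 79339693 to 79581612 and encodes the Ras regulator neurofibromin. Evi2, a protein-coding gene on the same minus strand from 79513385 to 79530589, also overlaps it, and strand cannot separate reads of those 2 genes. Reads of Evi2a and of unspliced Nf1 transcripts can be told apart only if strand was used in counting, a setting not given in the sources used here. Evi2a's value is therefore uncertain. Nf1 was itself at -0.06, detected in 45.8% of GWI nuclei and 44.4% of control nuclei. Cd9 occupies bases 125460266 to 125494791 of chromosome 6, minus strand.

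Lineage genes gave a mixed picture. Of 31 transcription factor genes of the lineage, 8 had a row and 5 were higher, with a median of 0.06. Olig1, which encodes a basic helix-loop-helix factor required for myelination and repair, was detected in 12.9% of GWI nuclei and 8.1% of control nuclei (0.62), the only one past the size rule. Creb5 was at 0.28 and Prox1 at 0.14, whereas Sox10, the gene of the factor that drives myelin genes, was at 0.07. Klf9 and Sox2 were at -0.21 and -0.20.

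Genes that mark mature oligodendrocyte subtypes were mostly higher, and those of newly formed cells mostly lower, but both medians were near 0 against genes of like length. Of 27 mature subtype genes 13 had a row, 10 were higher, and the median was 0.21. Ptgds, which encodes the prostaglandin D synthase of mature cells, was detected in 51.0% of GWI nuclei and 40.7% of control nuclei (0.57). Gsn, the gene of the actin-severing protein gelsolin, was at 0.41, and Apod, which encodes the lipid carrier apolipoprotein D, was at 0.30. Of 19 genes of newly formed oligodendrocytes 6 had a row and 2 were higher, with a median of -0.14. Enpp6, an early marker of new oligodendrocytes, was at 0.25, and Cyfip2, a regulator of actin, was at -0.34. The mature genes had a median length of 20.8 kb and the newly formed ones 114 kb. Measured against the median of listed genes of like length, their medians were 0.037 and -0.031. Of 30 genes reported in disease-associated oligodendrocytes 5 had a row and 4 were higher, against 44.5% of all listed genes. The highest was the tetraspanin gene Cd63 (0.57, detected in 14.3% of GWI nuclei and 9.5% of control nuclei). Apod, Trf and Il33 of this list are also among the mature genes. The median of this list was 0.036 against genes of like length.

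Genes of lipid synthesis and transport were mostly higher, with the clearest values in desaturases. Of 36 fatty acid genes 10 had a row and 9 were higher, with a median of 0.19. Scd2 and Scd1 encode stearoyl-CoA desaturases, which introduce the double bond of oleate. Scd2 was detected in 84.9% of GWI nuclei and 75% of control nuclei (0.46), and Scd1 in 10.4% of GWI nuclei and 7.4% of control nuclei (0.54). Elovl7, the gene of a fatty acid elongase, was at 0.34 and Acsl3, which encodes an acyl-CoA synthetase, at 0.27. Mboat2, a lysophospholipid acyltransferase gene, was the lower member at -0.26. For the 5 members with rows in enough other cell type tables, the median was -0.05 once the median change of the same gene there was subtracted.

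Sphingolipid genes split. Of 37 genes 13 had a row and 7 were higher, with a median of 0.06. Degs1, which encodes the desaturase that turns dihydroceramide into ceramide, was detected in 10.9% of GWI nuclei and 6.8% of control nuclei (0.69), and Cers2, the ceramide synthase gene for very long chains, in 12.8% of GWI nuclei and 9.3% of control nuclei (0.42). Both act at the start of the route to myelin galactolipids. The later steps were nearer to 0, with Ugt8a, the galactosyltransferase gene, at 0.15 and Gal3st1, the sulfatide synthase gene, at 0.15. Fa2h, the fatty acid hydroxylase gene, was at -0.09. Of 36 cholesterol genes 6 had a row and 4 were higher: Apoe (0.38) and Npc1 (0.32), which serve transport, and Abca2 (0.24) and Osbpl1a (0.14). Srebf2, the gene of the master regulator of sterol synthesis, was at -0.10.

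All 4 listed genes of 18 iron handling genes were higher, against 44.5% of all listed genes. Their median was 0.25, and 0.095 measured against genes of like length. Oligodendrocytes hold much of the brain's iron. Slc48a1, which encodes a haem transporter, was detected in 22.1% of GWI nuclei and 15.9% of control nuclei (0.50). Fth1, the ferritin heavy chain gene, was detected in 50.4% of GWI nuclei and 41.8% of control nuclei (0.28). Trf, the transferrin gene that oligodendrocytes express strongly, was at 0.21 and Ireb2, the gene of an iron sensor, was at 0.16. In other tables of these libraries Fth1 was at -0.09 in OPCs, -0.15 in astrocytes, -0.10 in microglia, -0.26 in pericytes and -0.06 in the group named Other.

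Lysosomal and tetraspanin genes were higher too. Of 34 genes 15 had a row and 11 were higher, with a median of 0.28, and 4 passed the size rule upward: Cd9, Cd81, Cd63 and Lamp1. Lamp1, which encodes the main lysosomal membrane glycoprotein, was detected in 40.6% of GWI nuclei and 28.7% of control nuclei (0.54). Tfeb, the gene of a regulator of lysosome genes, was at -0.24, and Psap, the prosaposin gene, was at -0.12. Lamp1 was higher in other tables too, at 0.28 in excitatory neurons, 0.54 in inhibitory neurons, 0.59 in OPCs, 0.43 in astrocytes and 0.61 in microglia, but at -0.08 in endothelial cells. The list as a whole had medians of 0.46 in OPCs and 0.43 in microglia. For the 12 members that could be compared, the oligodendrocyte median was -0.0012 once the median of the 5 other tables was subtracted gene by gene.

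Among protein folding genes, chaperones of the endoplasmic reticulum and of the cytosol lay on opposite sides of 0. The 17 listed of 43 heat shock and folding genes had a median of only 0.08, and the split was drawn after these values had been seen. All 7 listed of 9 endoplasmic reticulum genes were higher, with a median of 0.40, whereas 7 of 9 listed of 22 cytosolic genes were lower, with a median of -0.18. Hsp90b1, which encodes GRP94, the endoplasmic reticulum form of HSP90, was detected in 28.7% of GWI nuclei and 21.3% of control nuclei (0.40). Its cytosolic counterparts Hsp90aa1 and Hsp90ab1 were at -0.27 and -0.18. Both groups are made of short genes, with median lengths of 15.3 kb and 15.0 kb, and so hardly differ in length.

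The endoplasmic reticulum group covered several folding steps. Ppib (0.47) encodes a proline isomerase, Pdia3 (0.41) a disulfide isomerase of glycoproteins, and Calr (0.40) and Canx (0.19) the lectin chaperones calreticulin and calnexin. Hspa5, the gene of the central chaperone BiP, was detected in 14.8% of GWI nuclei and 11.8% of control nuclei (0.27), and its cochaperone gene Dnajc3 was at 0.22. No member of this group reached the size rule. In the cytosolic group, Hsph1, which encodes an HSP110 family exchange factor, was detected in 8.4% of GWI nuclei and 11.9% of control nuclei (-0.52). Its relative Hspa4l was detected in 7.2% of GWI nuclei and 11.1% of control nuclei (-0.70). Those 2 passed the size rule downward. Chordc1, an HSP90 partner, was at -0.33, Hspa8 at -0.18 and Dnaja1 at -0.16, while Hspa4 (0.06) and the small heat shock protein gene Cryab (0.28) were the higher members.

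The promoters of these genes are shown because the 2 groups are known targets of different stress programmes, the unfolded protein response and the heat shock response. The sequences are the RefSeq windows of GRCm38.p6, from 250 bases before to 50 bases after the annotated start. Capitals mark matches on either strand. In the first 3 promoters they mark the endoplasmic reticulum stress element, searched as CCAAT and CCACG with any 9 bases between them. In the last 2 they mark the heat shock element, searched as GAA, TTC and GAA, or the reverse complement TTC, GAA and TTC, with any 2 bases between neighbouring parts. The windows are chr2:34771840-34772139 on the plus strand for Hspa5, chr10:86705395-86705694 on the minus strand for Hsp90b1, chr8:84846882-84847181 on the minus strand for Calr, chr5:149636287-149636586 on the minus strand for Hsph1, and chr9:18292017-18292316 on the plus strand for Chordc1.
Hspa5: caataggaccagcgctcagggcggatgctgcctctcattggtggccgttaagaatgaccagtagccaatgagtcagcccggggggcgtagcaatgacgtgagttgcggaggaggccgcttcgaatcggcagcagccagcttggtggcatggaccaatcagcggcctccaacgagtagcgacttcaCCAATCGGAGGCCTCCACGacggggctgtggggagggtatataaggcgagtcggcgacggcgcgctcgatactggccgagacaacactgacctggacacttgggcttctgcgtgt
Hsp90b1: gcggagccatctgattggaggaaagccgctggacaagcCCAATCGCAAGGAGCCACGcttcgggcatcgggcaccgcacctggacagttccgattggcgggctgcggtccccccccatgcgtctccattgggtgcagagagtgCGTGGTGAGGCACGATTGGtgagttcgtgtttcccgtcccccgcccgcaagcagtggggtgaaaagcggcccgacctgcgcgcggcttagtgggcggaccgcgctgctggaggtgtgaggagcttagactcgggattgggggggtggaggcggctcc
Calr: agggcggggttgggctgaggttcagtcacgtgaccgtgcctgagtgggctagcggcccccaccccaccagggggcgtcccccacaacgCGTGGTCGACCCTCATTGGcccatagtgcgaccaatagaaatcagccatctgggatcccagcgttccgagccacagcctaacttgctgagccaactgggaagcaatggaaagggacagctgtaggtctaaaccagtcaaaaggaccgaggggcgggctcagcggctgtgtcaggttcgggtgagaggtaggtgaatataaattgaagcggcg
Hsph1: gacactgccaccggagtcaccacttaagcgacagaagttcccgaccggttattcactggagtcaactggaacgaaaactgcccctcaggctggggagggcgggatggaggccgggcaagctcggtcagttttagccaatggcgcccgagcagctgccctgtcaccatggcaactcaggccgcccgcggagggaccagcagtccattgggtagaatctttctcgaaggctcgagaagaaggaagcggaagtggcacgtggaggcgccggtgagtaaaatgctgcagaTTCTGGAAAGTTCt
Chordc1: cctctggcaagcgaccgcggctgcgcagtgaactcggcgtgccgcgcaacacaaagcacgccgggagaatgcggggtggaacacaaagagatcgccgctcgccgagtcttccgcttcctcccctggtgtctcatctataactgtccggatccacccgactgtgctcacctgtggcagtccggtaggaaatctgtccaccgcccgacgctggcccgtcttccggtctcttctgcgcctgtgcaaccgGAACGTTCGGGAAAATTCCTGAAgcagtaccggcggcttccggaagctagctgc

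The endoplasmic reticulum stress element occurred in the promoters of 5 of the 7 listed endoplasmic reticulum genes (Hspa5, Hsp90b1, Calr, Canx and Dnajc3), and in 35 of 27025 promoters of that table (0.130%). Hsp90b1 held 2 matches and the other 4 genes 1 each. The heat shock element occurred in 2 of the 5 cytosolic genes that could be matched to the table (Hsph1 and Chordc1), and in 143 of 27025 promoters (0.529%). Chordc1 held 3 matches that overlap one another. No listed endoplasmic reticulum gene held the heat shock element and no matched cytosolic gene held the stress element in these windows. Matches in known targets of these programmes are no new result of these data. A match describes these letters only, and no binding was measured. Whether either programme took part in the differences was not tested.

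The same direction of split appeared in most other tables of these 2 libraries, which are not independent of one another. The endoplasmic reticulum genes had medians of 0.15 in excitatory neurons, 0.26 in inhibitory neurons, 0.17 in OPCs, 0.16 in astrocytes and 0.37 in microglia. The cytosolic genes had medians of -0.14, -0.13, -0.23, -0.23 and -0.20 in the same order. Both groups were below 0 in endothelial cells, where the endoplasmic reticulum genes had a median of -0.06 and the cytosolic genes one of -0.21. In the group named Other the medians were 0.13 and -0.00. Hsp90aa1 was lower in all 9 tables, from -0.12 in inhibitory neurons to -0.62 in pericytes. Hspa4l was at -0.70 in oligodendrocytes, against -0.12 in excitatory neurons, -0.14 in astrocytes, -0.47 in OPCs, -0.96 in pericytes and 0.09 in the group named Other.

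**Figure D3:**
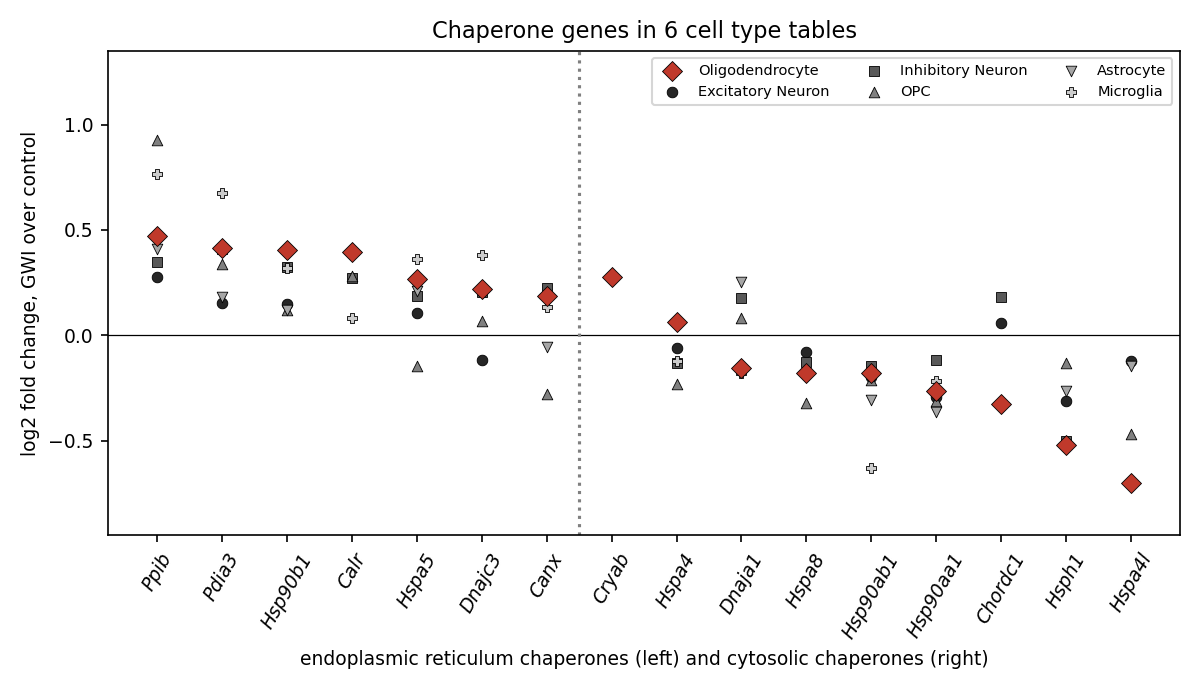
Log2 fold change, GWI over control, for 7 endoplasmic reticulum chaperone genes (left of the dotted line) and 9 cytosolic chaperone genes (right), in the oligodendrocyte table (red diamonds) and 5 other cell type tables (grey and black symbols). A missing symbol means that the gene had no row. All 7 genes at the left are above 0 in oligodendrocytes and 7 of the 9 at the right are below 0.

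Genes of the early secretory pathway had the highest median among lists with several listed members, in a list made after the values were seen. Of 36 genes 11 had a row and 10 were higher, with a median of 0.48, and 5 passed the size rule upward. Sec11c, which encodes the catalytic subunit of signal peptidase, was detected in 25.1% of GWI nuclei and 15.5% of control nuclei (0.68). Tmed10, the gene of a p24 cargo receptor, was detected in 21.1% of GWI nuclei and 13.8% of control nuclei (0.61). Selenos (0.59) takes part in disposal of misfolded proteins, Tmbim6 (0.56) in calcium balance of the endoplasmic reticulum, and Ccdc47 (0.50) in membrane protein insertion. Sec24b, a coat gene of transport vesicles, was the lower member at -0.34. The list was above 0 in every other cell type as well. Its median was 0.19 in excitatory neurons, 0.27 in inhibitory neurons, 0.37 in OPCs, 0.19 in astrocytes and 0.21 in microglia. It was 0.08 in endothelial cells, 0.14 in pericytes and 0.12 in the group named Other. Among the 5 other tables compared, Tmed10 was between 0.09 and 0.18 in the neuronal, OPC, astrocyte and microglial tables. Sec11c was at 0.10 in excitatory neurons and -0.23 in OPCs.

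Gap junction genes link oligodendrocytes to astrocytes and to one another. Gjb1, which encodes connexin 32, was detected in 10.8% of GWI nuclei and 7.6% of control nuclei (0.52), and Gjc3, the gene of connexin 29, in 55.1% of GWI nuclei and 50.7% of control nuclei (0.07). Gjb1 had no row in any of the other 5 tables compared. Gatm, which encodes the first enzyme of creatine synthesis, was among the more widely detected genes past the size rule, with 64.6% of GWI nuclei and 49.7% of control nuclei (0.52), and was named after its values were seen.

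Axoglial adhesion and signalling genes lay on both sides of 0. Of 34 adhesion and paranode genes 21 had a row and 9 were higher, with a median of -0.06 near that of all listed genes. Epb41l3, the gene of a protein 4.1 family member of the membrane skeleton, was at 0.17. Cntn1 (-0.35), Sptan1 (-0.32) and Nrxn3 (-0.30) were at the low end. Of 42 signalling genes 20 had a row and 9 were higher, with a median of -0.12. Gpr37, an oligodendrocyte receptor that restrains myelination in mice, was detected in 40.3% of GWI nuclei and 29.8% of control nuclei (0.50). Pde7b, which encodes a cyclic AMP phosphodiesterase, was detected in 6.8% of GWI nuclei and 10.0% of control nuclei (-0.65). The neuregulin genes Nrg3 (-0.35) and Nrg1 (-0.32) were lower, whereas the growth factor receptor gene Fgfr2 was at 0.14 and the Nogo gene Rtn4 at 0.10.

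Of 26 glucocorticoid responsive genes 7 had a row and 3 were higher, with a median of -0.08. Nr3c1, the glucocorticoid receptor gene, was detected in 32.8% of GWI nuclei and 27.0% of control nuclei (0.27). Zbtb16, a strong target of the receptor, was detected in 14.7% of GWI nuclei and 17.3% of control nuclei (-0.43). The receptor gene and this target lay on opposite sides of 0. Of 35 genes of the glycolysis and lactate support list only Pkm (-0.18) and P4ha1 (-0.81) had a row. P4ha1 encodes a subunit of collagen prolyl hydroxylase, not a glycolytic enzyme. Of 77 nuclear oxidative phosphorylation genes only Atp5c1 (0.42) and Sdha (0.12) had a row. Of 13 mitochondrially encoded genes 9 had a row, between -0.36 for mt-Nd5 and 0.27 for mt-Nd4.

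**Figure D4:**
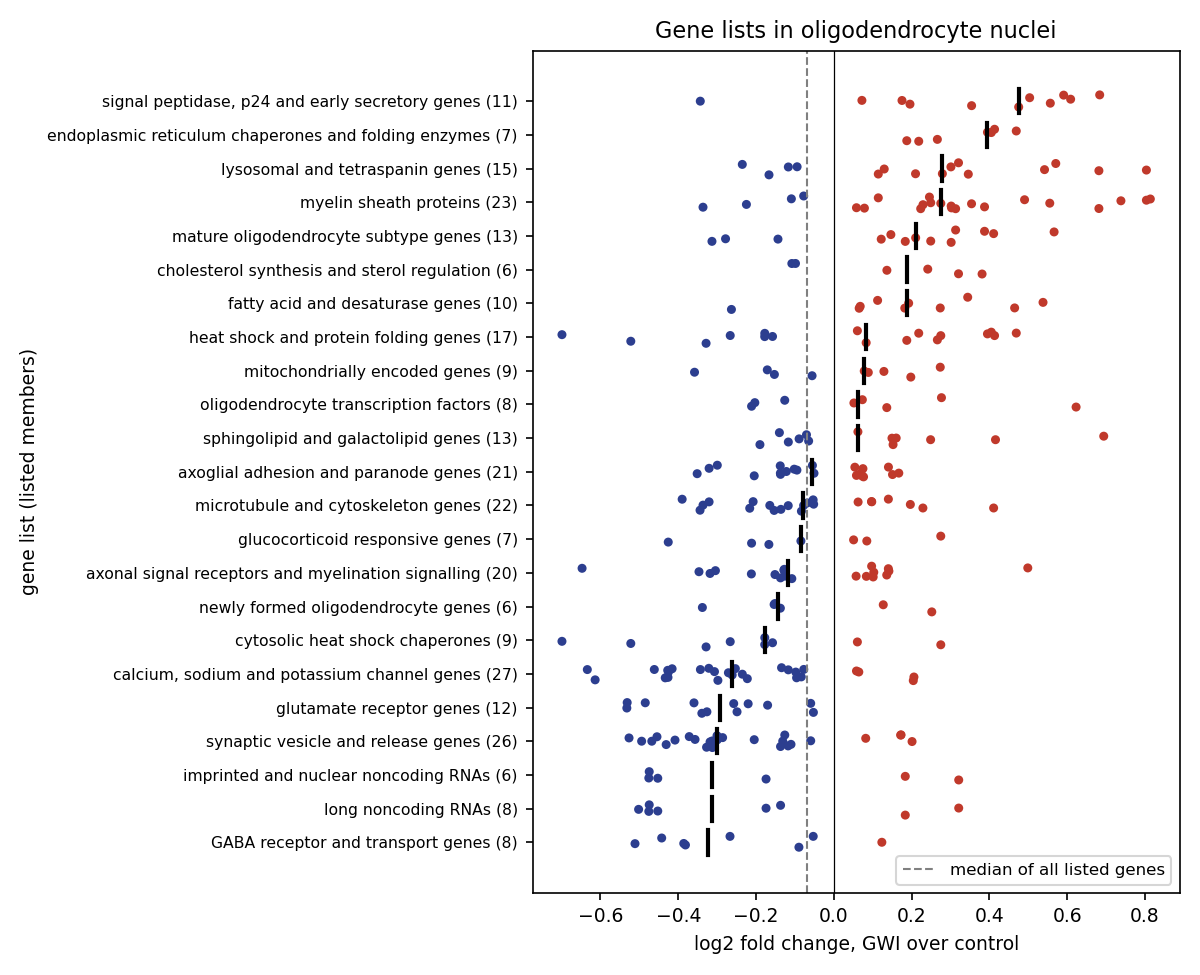
Log2 fold change, GWI over control, for the listed members of 23 gene lists, with the number of listed members after each name. Red points are genes higher in GWI, blue points genes lower in GWI, black bars the list medians and the dashed line the median of all 2053 genes (-0.07). Lists overlap, and the lists of secretory genes, both chaperone groups and imprinted RNAs were made after the values were seen. Medians run from 0.48 for early secretory genes to -0.32 for GABA genes.

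Genes of ion channels, neurotransmitter receptors and synaptic release were mostly lower in the GWI oligodendrocyte nuclei. Of all 2053 listed genes, 1139 were lower. All 12 listed of 24 glutamate receptor genes were lower, with a median of -0.29. Of these, 11 were in the longest of 5 length groups (from 227 kb), where 14.2% of all genes were higher in GWI. Gria1, which encodes an AMPA receptor subunit, was detected in 21.1% of GWI nuclei and 27.4% of control nuclei (-0.53), and Grm5, a metabotropic receptor gene, in 32.9% of GWI nuclei and 39.6% of control nuclei (-0.48). Of 8 listed GABA receptor and transport genes 7 were lower, with a median of -0.32, and Gabrg3 was at -0.44. Of 61 channel genes 27 had a row and 23 were lower, with a median of -0.26. Of the 27, 19 were in the longest length group. Ryr3, the gene of a calcium release channel, was detected in 8.6% of GWI nuclei and 13.0% of control nuclei (-0.63), and Cacnb2, which encodes a calcium channel subunit, in 12.1% of GWI nuclei and 16.1% of control nuclei (-0.61). Kcnj10, the Kir4.1 channel gene by which oligodendrocytes take up potassium, was at 0.06. The channel list was below 0 in most other cell types too. Its median was -0.08 in excitatory neurons, -0.14 in inhibitory neurons, -0.09 in OPCs, -0.14 in astrocytes and -0.15 in microglia. It was 0.03 in endothelial cells, -0.62 in pericytes and -0.11 in the group named Other.

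Of 52 synaptic vesicle and release genes 26 had a row and 22 were lower, with a median of -0.30. Of the 26, 15 were in the longest length group. Homer1, which encodes a postsynaptic scaffold, was detected in 15.2% of GWI nuclei and 20.5% of control nuclei (-0.53). Syn2 and Camk2b were at -0.47 and -0.45. Many of these are textbook neuronal genes rather than oligodendrocyte genes. Neuronal markers moved with them: Camk2a was at -0.49, Grin2b at -0.33 and Grin2a at -0.25, while Prox1, a marker of granule neurons that oligodendrocytes also express, was at 0.14. The OPC marker Tnr was at -0.31, and the astrocyte markers Slc1a2 and Gpc5 at -0.36 and -0.24. The other 4 excitatory neuron markers had no row. The part of RNA from other cells in these differences was not tested. The synaptic list was below 0 in every other cell type as well. Its median was -0.13 in excitatory neurons, -0.20 in inhibitory neurons, -0.16 in OPCs, -0.18 in astrocytes and -0.24 in microglia. It was -0.29 in endothelial cells, -0.43 in pericytes and -0.17 in the group named Other.

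Genes detected far more widely in excitatory neurons than in oligodendrocytes were lower as a class. Detection in other cell types played no part in this grouping. Pde7b, for example, was detected in 79.7% of GWI excitatory neurons and also in 77.2% of GWI OPCs. The excitatory neuron table gives detection of many of the same genes. The 341 genes detected in at least 4 times as large a share of excitatory neurons as of oligodendrocytes had a median of -0.18, and 23.2% were higher in GWI. The 913 genes at 1 to 4 times had a median of -0.07 and 45.5% higher. The 112 genes detected in a smaller share of excitatory neurons had a median of 0.10 and 59.8% higher. The 687 genes with no row in the excitatory neuron table had a median of 0.06 and 51.4% higher. Lack of a row there need not mean low detection. Among these, the 80 genes with no row in any of 5 other tables had a median of 0.20, and 64 of them were higher. Those tables were neurons of both kinds, OPCs, astrocytes and microglia. Median gene length was 121 kb for the 341 genes and 26.1 kb for the 80. Over the classes with rows in both tables, relative detection in excitatory neurons and direction in oligodendrocytes thus ran together.

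Gene length ran with direction as well. When the 2011 listed genes with a length in the GENCODE M21 annotation were ordered by length and divided into 5 groups of nearly equal size, the median log2 fold change was 0.17 in the shortest group, then 0.07, -0.07, -0.11 and -0.18 in the longest. The share of genes higher in GWI was 76.2% in the shortest group (up to 37.7 kb) and 14.2% in the longest (227 kb to 2961 kb). Of the genes past the size rule, 31 upward and 2 downward were in the shortest group, and 1 upward and 15 downward were in the longest. Myelin genes are short, with a median of 17.1 kb, and channel genes are long, with a median of 385 kb. Measured against the median of their own length group, myelin genes had a median of 0.13, channel genes -0.12, synaptic genes -0.12, glutamate receptor genes -0.15, endoplasmic reticulum chaperones 0.22 and cytosolic chaperones -0.35. Within the 3 shorter groups, the genes detected at least 4 times as widely in excitatory neurons had a median of -0.09. Their median was -0.25 within the 2 longer groups. The parts of length and of relative detection in excitatory neurons were not separated further.

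**Figure D5:**
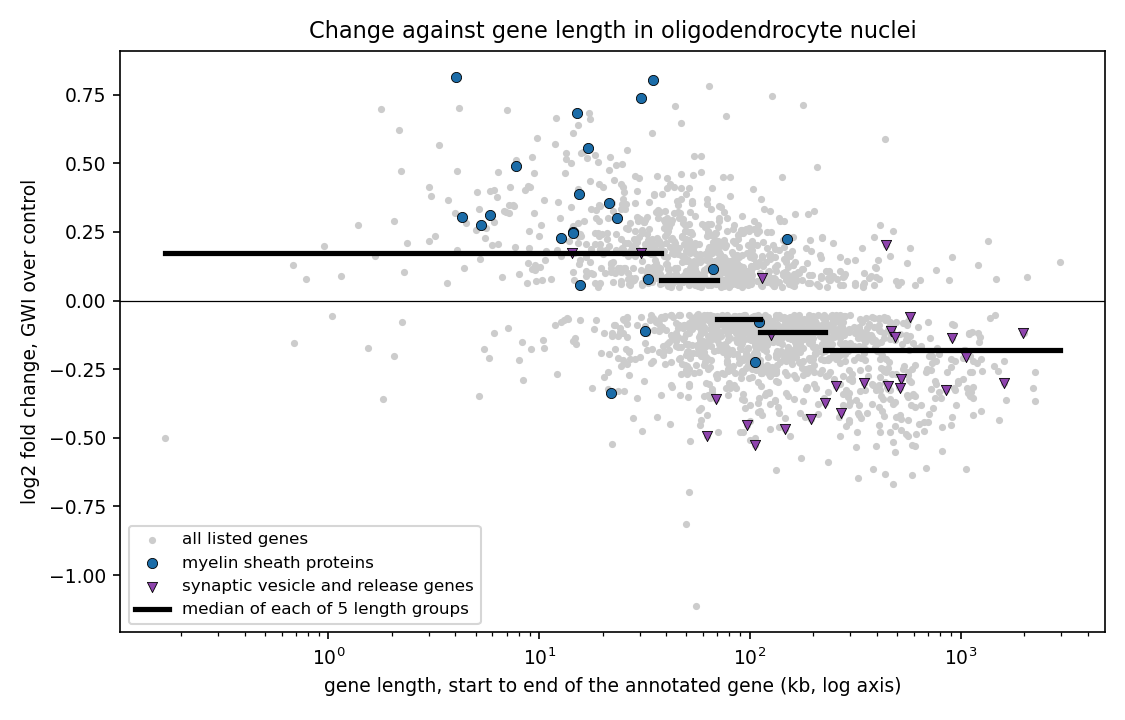
Log2 fold change, GWI over control, against gene length from annotated start to end, on a log axis in kb, for 2011 listed genes. Black bars are the medians of 5 length groups, from 0.17 in the shortest to -0.18 in the longest. Myelin sheath genes (blue circles) lie mostly at the short end above 0, and synaptic genes (purple triangles) mostly at the long end below 0.

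Long noncoding RNAs did not share 1 direction. Malat1, detected in all nuclei of both libraries, was at 0.32, and Neat1, another nuclear RNA, was at 0.18. Meg3, an imprinted RNA, was detected in 72.2% of GWI nuclei and 80.7% of control nuclei (-0.47). Rian, from the same imprinted cluster, was at -0.45, Snhg14 at -0.48 and Bc1, a short neuronal cytoplasmic RNA, at -0.50. The 6 lower of 8 listed members of 18 gave the list a median of -0.31, and Meg3, Rian, Snhg14 and Bc1 are abundant in neurons. Malat1 was between 0.22 and 0.41 in all 9 tables.

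The remaining named genes at the extremes belong to no single list. On the high side were Shisa4 (0.70), Dusp16 (0.67), which encodes a phosphatase of stress kinases, Selenop (0.67), the gene of a selenium carrier, Tmbim1 (0.66), Trim36 (0.65), a ubiquitin ligase gene, and Prdx1 (0.64), a peroxide-reducing enzyme gene. Tmbim1 lies inside the span of Pnkd, a gene on the other strand, so its reads are uncertain if strand was not used. Dusp16 was also higher in excitatory neurons (0.11), inhibitory neurons (0.20), astrocytes (0.27), microglia (0.33) and OPCs (0.43), but at -1.01 in endothelial cells. On the low side were Caln1 (-0.67), which encodes a calcium-binding protein, the glycosyltransferase genes Galnt17 (-0.63) and Galnt13 (-0.61), Ksr1 (-0.62), a scaffold gene of the Ras pathway, Rbms3 (-0.61) and Etv6 (-0.59). Caln1 was lower in both neuron tables as well, at -0.41 in excitatory and -0.25 in inhibitory neurons.

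Bfsp2 was the lowest gene of the table and the only one past a log2 fold change of 1 in size. It encodes a beaded filament protein best known from the lens, and was detected in 7.5% of GWI nuclei and 14.0% of control nuclei (-1.11). It had no row in any other cell type table. It occupies bases 103424924 to 103480420 of chromosome 9, minus strand, and overlaps 2 genes annotated as antisense, so its reads are uncertain if strand was not used. P4ha1, which encodes a subunit of the collagen prolyl hydroxylase that requires oxygen, was detected in 10.7% of GWI nuclei and 16% of control nuclei (-0.81). The fold changes of its other rows were above 0, at 0.66 in endothelial cells, 0.44 in pericytes and 0.27 in the group named Other. In endothelial cells, however, it was detected in 21.4% of GWI nuclei and 25.3% of control nuclei. In pericytes and the group named Other the share detected was higher in GWI.

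For genes with rows in at least 3 of the 5 other tables, the oligodendrocyte value was set against the median of those rows, which come from the same 2 libraries. Mbp was at -0.08 in oligodendrocytes, against -0.38 in excitatory neurons, -0.25 in inhibitory neurons, -0.17 in astrocytes, -0.12 in microglia and -0.51 in OPCs. Mbp was detected in 42.2% of GWI excitatory neurons and 45.9% of control excitatory neurons, a cell type that does not make myelin. Mbp was at -1.21 in endothelial cells and 0.64 in pericytes.

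Genes that stood high above the other tables included Rybp, Coro1c and Tmed10. Rybp, which encodes a Polycomb complex subunit, was detected in 22.4% of GWI nuclei and 15.3% of control nuclei, with 0.53 in oligodendrocytes against a median of -0.07. Coro1c, the gene of an actin regulator, was at 0.41 against -0.15. Tenm3 (-0.48 against 0.10), Dgkh (-0.57 against -0.00), Robo2 (-0.47 against 0.09) and Hspa4l (-0.70 against -0.14) stood lowest. Tenm3 and Robo2 encode receptors of axon guidance and adhesion, and Dgkh a lipid kinase. With this subtraction the median of the 9 myelin genes that could be compared was 0.10, that of early secretory genes 0.20, that of endoplasmic reticulum chaperones 0.08 and that of channel genes -0.22.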

How the data were processed

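Nuclei of 1 GWI and 1 control library were captured with 10x Genomics chemistry, per the labels' protocols. Cell Ranger and GRCm38 (mm10) were used, per the submitters' processing notes. How nuclei were clustered and tested, and how doublets and free RNA were treated, was not given in the sources used here. Each table holds, per the file headers, log2 fold changes made by the authors, with unknown scaling and pseudocount, and deposited detection fractions, 1 per library, printed here as percentages. The deposited p-values were computed over nuclei, with adjusted p-values equal to the raw ones times 25706. They were left unused because nuclei are not replicates, and no test, SE or interval was computed.

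Genes were counted by size (a log2 fold change of 0.5 or more either way) and lists by listed members and median. Members and lists were chosen with earlier results of these data known, and the secretory, both chaperone, gap junction and imprinted RNA lists after the values here were seen. Named genes were the 12 highest and 12 lowest (leaving out predicted, clone and mitochondrial genes), members of lists, the 10 highest and 10 lowest against other tables and the 10 most widely detected. Nf1 and Gatm were added afterwards, and some named genes are not reported here. Gene spans came from GENCODE M21 and promoters from RefSeq. The counting steps were tested on simulated data. Python 3.11.15, pandas 2.3.3, numpy 2.4.6 and matplotlib 3.10.9 were used.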

Additional observations from a re-analysis of the deposited data

How the results depend on the processing

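No paired analysis was possible because each group is 1 library with no replicate, and for the same reason no replicate could be left out. The 40 genes higher by at least 0.5 became 236 at a size of 0.25, 0 at 1, 62 after centring on the median of listed genes, 19 against the median of the same length group, 4 after subtracting the median of 5 other cell type tables (for genes with enough rows there) and 9 at a detection minimum of 25%. The 27 lower genes became 305, 1, 13, 21, 9 and 3 in the same order. The share higher, 44.5%, was 49.98% after centring and within length groups, 40.9% at the detection minimum and 53.2% when direction was read from the detected shares. Of 27 list medians, 26 kept their sign after centring, 25 within length groups, 21 after subtracting other tables and all 27 as means; of 20 at the detection minimum, 17 did. Signs turned for transcription factors (-0.031), axoglial genes (0.0070), fatty acid genes (-0.046), glucocorticoid responsive genes (0.11), cytoskeleton genes (0.0079), lysosomal and tetraspanin genes (-0.0012) and the gene Bc1 (0.10) after subtracting other tables, for axoglial genes after centring (0.015) and within length groups (0.043), for mitochondrially encoded genes within length groups (-0.10), and for signalling (0.057), sphingolipid (-0.089) and glucocorticoid responsive genes (0.051) at the detection minimum. The cause was not tested. Depth per nucleus and numbers of nuclei were not given in the sources used here, so counting error is unknown.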

Other observations

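Cytoskeleton genes, not described above, lay on both sides of 0. Of 52 genes 22 had a row and 7 were higher, with a median of -0.08. Stmn1 (0.23), which encodes a microtubule destabiliser, and Tubb4a (0.20), the tubulin gene mutated in a human hypomyelinating disease, were higher in the GWI library. The microtubule-associated protein genes Map1b (-0.39) and Map1a (-0.32) and the kinesin gene Kif5a (-0.34) were lower in the GWI library.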
